A study of Drosophila melanogaster with 24 samples.

Results

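The genes of the proteasome, the protease that degrades proteins tagged with ubiquitin, were examined for occupancy by Stwl and BEAF in Drosophila melanogaster ovaries. Members were all protein-coding genes whose symbols begin with Prosalpha, Prosbeta, Rpn or Rpt followed by a number, which took 48 of 13911 protein-coding genes on the main chromosome arms. Of these, 32 are general subunits and 16 are paralogues with a T or R suffix. The rule uses symbols and no measured value, but it was chosen with earlier results of these data known. Intervals came from CUT&RUN, in which an antibody directs a nuclease to cut and release the DNA around its target. The profiles used were Stwl, called a transcription factor by the series, in ovaries labelled bam GKD (undifferentiated stages), Stwl in ovaries labelled WT (differentiated stages), and BEAF, a boundary element protein, in WT ovaries. Whole ovaries were used, so germline and somatic cells were measured together. The label bam GKD refers to bam, a gene needed for germline cells to begin differentiation, and the sources used here do not give the promoter that drives the knockdown, the age of the flies or the number pooled.

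In the proteasome, alpha and beta subunits stack into a barrel whose inner face carries the protein-cutting sites, and a cap recognises, unfolds and feeds in the substrate. The Rpt subunits of the cap are ATPases that pull the substrate into the barrel, and the Rpn subunits bind ubiquitin, remove it or hold the cap together. Every dividing or growing cell uses these general subunits. Drosophila also carries extra copies of many of the genes, several of which are known for expression in the testis, such as Prosalpha6T, which is needed to make sperm. The deposited lists hold no expression values, so where the paralogues are active was not measured.

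Each group was a single list of intervals without scores or read counts, so there is no replicate error, no test was made, and every difference below is between these lists and not between conditions. On the main arms there were 12857 Stwl intervals in bam GKD (median width 807 bp), 8576 Stwl intervals in WT (721.5 bp) and 5083 BEAF intervals in WT (236 bp). Both Stwl lists had their widest interval over the chorion genes Cp15, Cp16, Cp18 and Cp19 on 3L, 81541 bp in bam GKD and 72696 bp in WT. These eggshell genes are amplified in follicle cells of late egg chambers, a stage that the label of bam GKD does not include, and the part of this in the bam GKD calls was not tested. A gene counts below as having Stwl or BEAF at an end where an interval reached the 500 bp to either side of one of its annotated ends. The annotation gives gene spans without strand, so the ends are called lower and upper by coordinate and promoters cannot be told from gene tails.

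General subunits and paralogues stood on opposite sides of the genome-wide share in every list. In bam GKD, Stwl was at an end of 24 of 32 general subunits (75%) and of 4 of 16 paralogues (25%), against 61.4% of all protein-coding genes. In WT, Stwl was at 29 general subunits (90.6%) and 3 paralogues (18.8%), against 55.7% of all genes. BEAF was at 20 general subunits (62.5%) and 3 paralogues (18.8%), against 28.1%. No paralogue was longer than 2000 bp, and of all genes up to that length 20.8% had BEAF at an end. The BEAF share of paralogues was thus near that of short genes. The bam GKD share of general subunits depended on narrow intervals: with only the wider 50% of each list it was 13 of 32 (40.6%), against 39.4% of all genes, and with 5083 widest intervals in every list it was 9 (28.1%), against 33.5%. In WT the same settings left 18 (56.2%, against 37.1%) and 23 (71.9%, against 42.3%). Neither protein was at an end in any list at 2 general subunits, Rpt4 and Rpn8, and at 10 paralogues, against 31.3% of all genes. All 3 lists had an interval at an end of 16 general subunits and of 1 paralogue, Prosbeta2R2, against 24.3% of all genes.

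**Figure D1:**
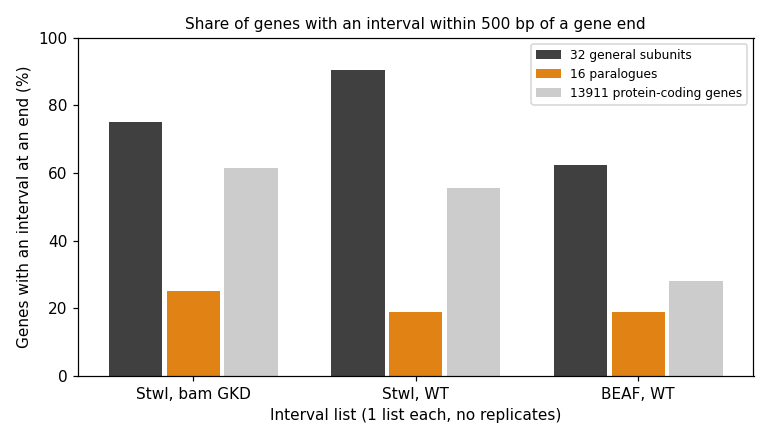
Bars give the percentage of genes with an interval within 500 bp of a gene end, for the 32 general subunits, the 16 paralogues and all 13911 protein-coding genes, in each of 3 interval lists. General subunits reach 75%, 90.6% and 62.5%, and paralogues 25%, 18.8% and 18.8%.

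The 7 general alpha genes, which encode the outer rings of the barrel and its gate, all had Stwl in WT, and all but Prosalpha1 had it in bam GKD. Prosalpha7 (2R, 9846636 to 9847836) lay wholly inside a WT interval of 7302 bp (2R, 9840985 to 9848286) that also reached the replication origin gene Orc6, and wholly inside a bam GKD interval of 3339 bp. Prosalpha6 (2L, 10221351 to 10222546) lay wholly inside a bam GKD interval of 9767 bp (2L, 10218759 to 10228525), the widest at any member and wider than 98.4% of that list, whereas its WT intervals left most of the gene uncovered (16.9% covered). Prosalpha4 (X, 16276270 to 16277587) had intervals at both ends, the widest being 5915 bp in bam GKD (X, 16277696 to 16283610) and 2752 bp in WT. Prosalpha3 (2R, 20994900 to 20996118) had widest intervals of 3879 bp in bam GKD and 4705 bp in WT (2R, 20995954 to 21000658). The narrowest in the ring were Prosalpha2 (600 bp in bam GKD, 2374 bp in WT), Prosalpha5 (312 bp and 542 bp) and Prosalpha1 (no interval in bam GKD, 289 bp in WT). BEAF was at 5 alpha genes and absent from the ends of Prosalpha2 and Prosalpha5. Its widest intervals there were 1269 bp at Prosalpha3, 950 bp at Prosalpha7, 819 bp at Prosalpha4, 304 bp at Prosalpha6 and 299 bp at Prosalpha1.

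Among the 7 general beta genes, Stwl was at 5 in bam GKD and 6 in WT, and BEAF at 5. Prosbeta1, Prosbeta2 and Prosbeta5 encode the subunits with the cutting sites, and they did not share a pattern. Prosbeta2 (3L, 14999951 to 15001319) had Stwl intervals of 937 bp in bam GKD and 522 bp in WT and a BEAF interval of 1572 bp (3L, 14999216 to 15000787). Prosbeta5 had Stwl of 578 bp in bam GKD and 1081 bp in WT, and no BEAF nearer than 2243 bp. Prosbeta1 had Stwl in WT (522 bp) and BEAF (565 bp) but no bam GKD interval nearer than 1743 bp. Prosbeta4 (2L, 16731180 to 16732133) and Prosbeta7 (3R, 5357012 to 5358364) lay wholly inside Stwl intervals in both genotypes, of 4598 bp in bam GKD (2L, 16727925 to 16732522) and 1871 bp in WT for Prosbeta4, and of 8300 bp in bam GKD (3R, 5351575 to 5359874) and 2371 bp in WT for Prosbeta7. Prosbeta3 had narrow intervals in all 3 lists, 417 bp, 440 bp and 204 bp for Stwl in bam GKD, Stwl in WT and BEAF, all at its upper end. Prosbeta6 was the only general subunit with BEAF and without Stwl at an end in WT, against 1.71% of all genes.

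The 6 general Rpt genes had Stwl at 3 in bam GKD and 5 in WT, and BEAF at 4. Their bam GKD share, 50%, was below the 61.4% of all genes, where the general subunits as a whole stood above it. With only 6 genes, this gap does not set the class apart. Rpt2, Rpt3 and Rpt6 were in all 3 lists. At Rpt3 the widest intervals were 403 bp in bam GKD, 1335 bp in WT and 1072 bp for BEAF, and at Rpt6 they were 874 bp, 1274 bp and 412 bp. Rpt2 had 705 bp in bam GKD, 702 bp in WT and 147 bp for BEAF, the last lying 432 bp from the gene. Rpt1 and Rpt5 had Stwl in WT only, and Rpt4 had nothing at its ends.

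The 12 general Rpn genes had Stwl at 10 in bam GKD and 11 in WT, and BEAF at 6. Rpn11, which encodes the enzyme that removes ubiquitin from substrates, carried intervals at both ends in all 3 lists, as did Rpn10, a ubiquitin receptor, and Rpn3. Widest intervals at Rpn11 (2L, 5058404 to 5059790) were 2631 bp in bam GKD, 2463 bp in WT and 1666 bp for BEAF (2L, 5059397 to 5061062). At Rpn10 (3L, 21537000 to 21538582) they were 1060 bp in bam GKD, 5184 bp in WT (3L, 21538831 to 21544014) and 1457 bp for BEAF. Rpn12 (3L, 16583028 to 16584022) carried the widest BEAF interval of any member, 3182 bp (3L, 16579801 to 16582982), wider than 99.9% of the BEAF list, which lay entirely beside the gene and reached nxf2 and Smn. Its Stwl intervals were 345 bp in bam GKD and 3187 bp in WT. Rpn6 (2R, 14750166 to 14752910) had 1092 bp in bam GKD, 1397 bp in WT and 1920 bp for BEAF (2R, 14751495 to 14753414). Rpn13, a second ubiquitin receptor (2R, 13958545 to 13960404), had Stwl at both ends, 3250 bp in bam GKD and 6489 bp in WT (2R, 13960140 to 13966628), and no BEAF nearer than 4498 bp. Rpn1, Rpn2, Rpn7, Rpn8 and Rpn9 also had no BEAF at an end. At Rpn3 the widest intervals were 191 bp in bam GKD, 474 bp in WT and 511 bp for BEAF, and at Rpn5 they were 662 bp, 613 bp and 343 bp. Of the Rpn genes without BEAF, Rpn1 had Stwl of 1401 bp in bam GKD and 1390 bp in WT, Rpn9 had 581 bp and 504 bp, and Rpn7 had 262 bp and 513 bp.

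**Figure D2:**
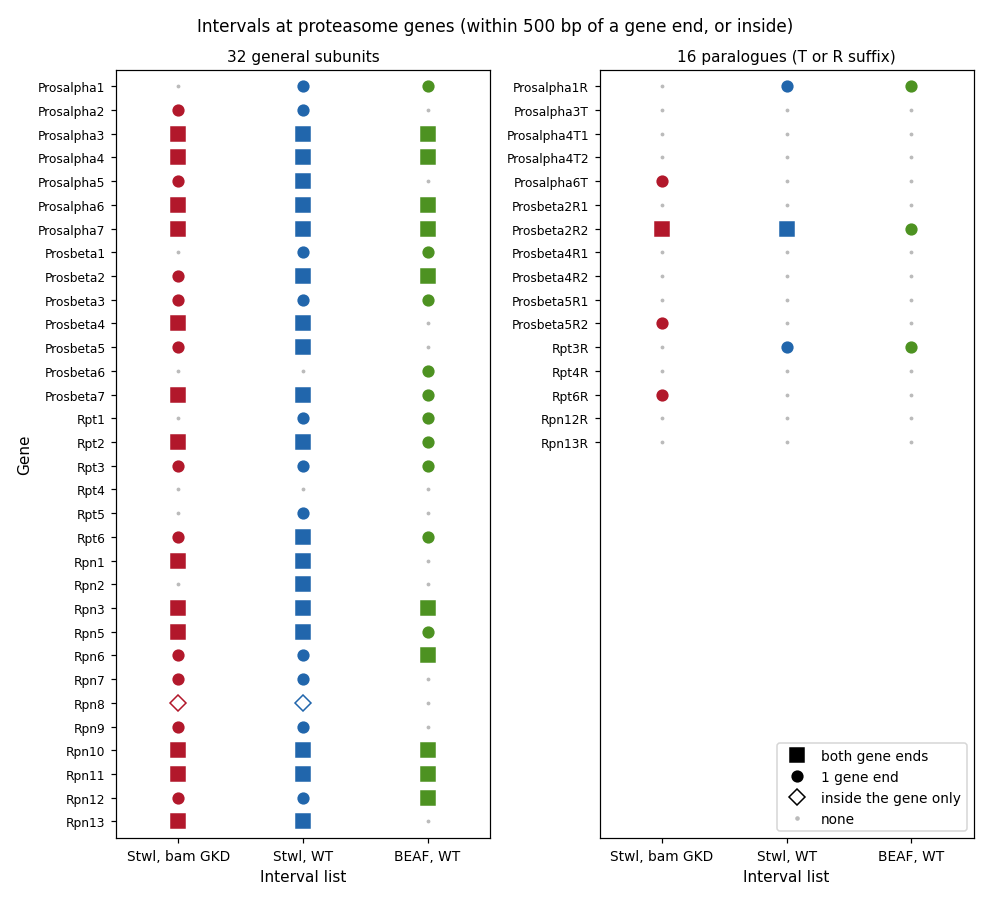
Each row is a gene and each column an interval list; squares mark intervals at both gene ends, circles at 1 end, diamonds inside the gene only, and small dots none. Of the 32 general subunits, 13 have Stwl at both ends in bam GKD and 18 in WT, while Prosbeta2R2 is the only paralogue with it at both ends in either genotype. The share of all genes with intervals at both ends was not counted, and a single wide interval can reach both ends of a short gene.

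The Stwl lists of bam GKD and WT were compared to ask whether the proteasome genes were occupied alike in ovaries of undifferentiated and differentiated stages. Among general subunits, 24 were occupied in both genotypes, against 49.5% of all genes. None had Stwl in bam GKD only, against 11.8%, and 5 had it in WT only, against 6.19%. Only the 3 general subunits without Stwl at an end in WT could have had it in bam GKD only, so a count of 0 says little. Of all genes without Stwl at an end in WT, 1645 had it in bam GKD and 4514 did not. At all 24 shared genes the intervals of the genotypes overlapped, by 262 bp to 4896 bp. How often this holds over all genes called in both lists was not counted. The widest interval was wider in bam GKD at 10 of these genes and in WT at 14, so width had no common direction. The 5 genes with Stwl in WT only were Prosalpha1, Prosbeta1, Rpt1, Rpt5 and Rpn2, spread over every class of subunit. With calls from the gene body in place of its ends, Stwl was limited to bam GKD at 1 gene, against 11.2% of all genes, and to WT at 8, against 8.64%. With 5083 widest intervals in every list it was limited to bam GKD at 0 genes, against 7.52%, and to WT at 14, against 16.3%, so under that setting all genes leaned to WT as well.

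At Rpn2, a scaffold of the cap (3R, 29153524 to 29157255), no bam GKD interval lay nearer than 15005 bp, and WT had intervals beyond both ends, of 201 bp (3R, 29153300 to 29153500) and 825 bp (3R, 29157484 to 29158308). At Rpt5 (3R, 23752876 to 23754623) bam GKD had none nearer than 3431 bp, and the only WT interval was 178 bp wide (3R, 23752596 to 23752773), lying inside the neighbouring gene RanBP3, 61 bp from its end and 103 bp from Rpt5. The shortest interval of the whole WT list was 176 bp, so this call rests on an interval near the smallest recorded. At Prosalpha1 (2R, 7827303 to 7828678) bam GKD was 3156 bp away, and WT had 289 bp (2R, 7828711 to 7828999). At Prosbeta1 (2R, 16013805 to 16014787) bam GKD was 1743 bp away, and the WT interval of 522 bp (2R, 16014597 to 16015118) also met Rrp42, a gene of the RNA exosome. At Rpt1 (2R, 7652440 to 7653954), which lies within CG17985, bam GKD was 1442 bp away and WT had 1848 bp (2R, 7653731 to 7655578). A bam GKD interval of 174 bp lay within the far part of that WT interval, beyond the limit set around Rpt1.

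Stwl was at an end in neither genotype at 3 general subunits, against 32.4% of all genes. Rpn8, the partner of Rpn11 (2R, 24400028 to 24404527), is the longest member at 4500 bp and had Stwl inside the gene in both genotypes, 977 bp in bam GKD (2R, 24401970 to 24402946) and 1021 bp in WT (2R, 24401955 to 24402975). Those intervals lay 1581 bp and 1552 bp from the nearest annotated end of Rpn8 and covered an end of Slik, which overlaps it. For Prosbeta6 the nearest Stwl interval was 1891 bp away in bam GKD and 1843 bp in WT. Around Rpt4 it was 3902 bp in bam GKD and 1357 bp in WT, and BEAF was 6092 bp away.

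**Figure D3:**
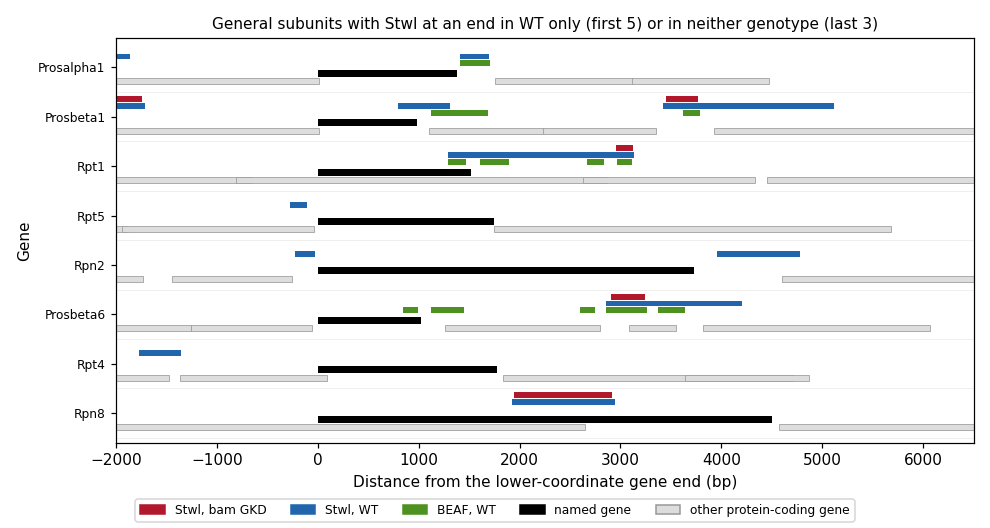
Intervals around the 5 general subunits with Stwl at an end in WT only and the 3 with it in neither genotype, against distance from the lower-coordinate gene end in bp; black bars are the named genes and grey bars other protein-coding genes. Red bam GKD intervals are absent from the ends of all 8 genes, and the pair of Stwl intervals at Rpn8 lies inside the gene.

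No member lay close to the 500 bp limit from outside. The calls with the largest gap between interval and gene end were BEAF at Rpt2 (432 bp) and Stwl in bam GKD at Prosalpha6T (392 bp), and the nearest misses were BEAF at Prosalpha2 (1320 bp) and Stwl in WT at Rpt4 (1357 bp).

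BEAF and Stwl were set side by side in WT to ask how often they met at these genes. Both were at an end of 19 general subunits, against 26.4% of all genes. At each of these 19 the BEAF and Stwl intervals overlapped, by a total of 147 bp at Rpt2 to 3182 bp at Rpn12 (median 775 bp). The share of such overlaps over all genes with both proteins was not counted. Stwl without BEAF was found at 10 general subunits, against 29.3% of all genes. Prosbeta6 had BEAF alone, with intervals of 157 bp and 333 bp at its upper end. Of the 20 general subunits with BEAF, 19 had Stwl as well, which is near the share of all genes with BEAF that had Stwl in WT (93.9%). Of the general subunits with Stwl in WT only, Prosalpha1, Prosbeta1 and Rpt1 had BEAF, and Rpt5 and Rpn2 did not.

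The intervals at general subunits were sorted by whether they touched the gene. Of 44 WT Stwl intervals at their ends, 23 covered an annotated gene end, 20 lay in the flank without touching the gene and 1 lay inside it. In bam GKD these numbers were 15, 17 and 1 of 33 intervals. For BEAF they were 15, 18 and 9 of 42. Counting only intervals that touch the gene body left 16 general subunits for Stwl in bam GKD, 23 in WT and 15 for BEAF, against 48.2%, 45.6% and 22.9% of all genes. In bam GKD that share, 50%, is near the background.

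Of the 16 paralogues, 6 had an interval at an end in some list. Prosbeta2R2 (3R, 5217751 to 5219528), a copy of the gene of a cutting subunit, was the only paralogue with Stwl in both genotypes. Its lower end carried 343 bp in bam GKD (3R, 5217617 to 5217959) and 4525 bp in WT (3R, 5213415 to 5217939), and the WT interval reached into cno, a gene of cell junctions. Its upper end carried Stwl of 174 bp in bam GKD (3R, 5219699 to 5219872), Stwl of 176 bp in WT (3R, 5219401 to 5219576) and BEAF of 187 bp (3R, 5219723 to 5219909). BEAF there overlapped the bam GKD interval and not the WT one.

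Rpt3R and Prosalpha1R had Stwl in WT only (12.5% of paralogues, against 6.19% of all genes), and both also had BEAF. With 16 paralogues, this gap does not set them apart. At Rpt3R (3R, 9754735 to 9756510), WT Stwl of 401 bp (3R, 9756266 to 9756666) covered the upper end, where Rpt3R overlaps the mannosyltransferase gene Alg12. BEAF of 366 bp (3R, 9756075 to 9756440) overlapped it by 175 bp, and bam GKD had no interval nearer than 2844 bp. At Prosalpha1R (2R, 7830413 to 7831771) WT Stwl of 269 bp (2R, 7831847 to 7832115) and BEAF of 246 bp (2R, 7831863 to 7832108) lay just beyond the upper end. Prosalpha1R lies close to Prosalpha1 on the same arm, and both genes showed the same layout: Stwl in WT began 33 bp beyond Prosalpha1 and 76 bp beyond Prosalpha1R, BEAF began 38 bp and 92 bp beyond, and bam GKD had nothing at either. Whether reads of these copies could be told apart was not tested.

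Stwl in bam GKD only was found at Prosalpha6T, Prosbeta5R2 and Rpt6R (18.8% of paralogues, against 11.8% of all genes). With 16 paralogues, this gap does not set them apart either. None of the bam GKD intervals at these 3 genes touched the paralogue. At Prosalpha6T (2L, 13232039 to 13233058) the interval of 408 bp lay 392 bp away and covered an end of Mabi. The interval of 1983 bp near Prosbeta5R2 (2L, 17990418 to 17991951) lay 127 bp away and covered an end of CG5681. The interval of 357 bp near Rpt6R (3R, 30582198 to 30583697) lay 109 bp away and covered an end of CG9717. In WT the nearest Stwl intervals to these 3 genes were 5800 bp, 26819 bp and 15620 bp away.

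The other 10 paralogues had no interval of any list within 500 bp of an end or inside the gene. They were Prosalpha3T, Prosalpha4T1, Prosalpha4T2, Prosbeta2R1, Prosbeta4R1, Prosbeta4R2, Prosbeta5R1, Rpt4R, Rpn12R and Rpn13R. In bam GKD the nearest interval to them ranged from 1635 bp at Rpt4R to 56605 bp at Prosbeta5R1. In WT it ranged from 5544 bp at Rpn12R to 70393 bp at Prosbeta4R1, and for BEAF from 9331 bp at Rpn13R to 75133 bp at Prosbeta4R2. Rpt4R and Rpn12R, at 1635 bp and 1815 bp, were the only ones with Stwl in bam GKD closer than 2000 bp.

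Over the 32 general subunits the median distance from the gene to the nearest Stwl interval was 12.5 bp in bam GKD and 0 bp in WT. For the 16 paralogues these medians were 4188.5 bp and 21219.5 bp, and for all protein-coding genes 30 bp and 61 bp. The median distance to BEAF was 31.5 bp for general subunits, 28477.5 bp for paralogues and 5925 bp for all genes. More than 5000 bp separated 6 paralogues from Stwl in bam GKD, 13 from Stwl in WT and 13 from BEAF, against 17.2%, 25.1% and 52.2% of all genes. The bam GKD list covers 21.5 Mb and the WT list 11.7 Mb, and the part of this difference in the distances was not tested.

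**Figure D4:**
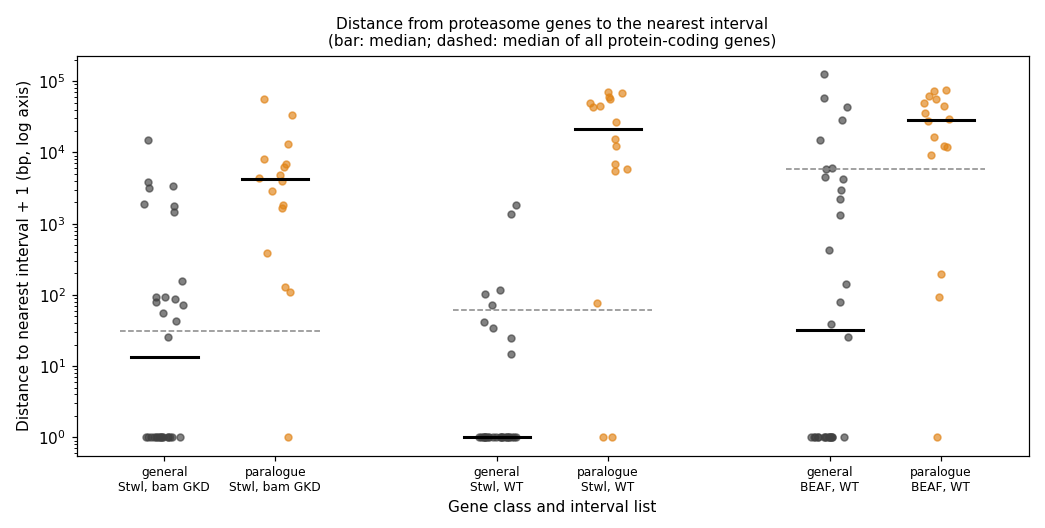
Each point is a gene, placed by its distance to the nearest interval plus 1 bp on a log axis, for general subunits and paralogues in the 3 lists; bars are medians and dashed lines the median of all protein-coding genes. The WT Stwl points of general subunits sit mostly at 0 bp, and those of 13 paralogues lie beyond 5000 bp.

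Each paralogue was set beside the general subunit whose symbol it extends, giving 16 pairs over 12 general subunits. Stwl was at the general subunit alone in 10 pairs in bam GKD and 12 in WT, and BEAF in 7. Both genes of the pair had Stwl in 4 pairs in bam GKD and 3 in WT, and BEAF in 3. In no pair and no list was the paralogue occupied without its general subunit. Few pairs could have shown this for Stwl: the general subunit lacked it in 2 pairs in bam GKD and 1 in WT, and lacked BEAF in 6. Rpt4 and Rpt4R were the only pair without Stwl at either gene in both genotypes. Prosbeta2, Prosbeta5, Prosalpha4 and Prosbeta4 have more than 1 paralogue each, and copies of the first pair differed: Prosbeta2R2 had all 3 lists and Prosbeta2R1 none, and Prosbeta5R2 had Stwl in bam GKD while Prosbeta5R1 had none. Neither copy of Prosalpha4 and neither copy of Prosbeta4 had an interval.

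**Figure D5:**
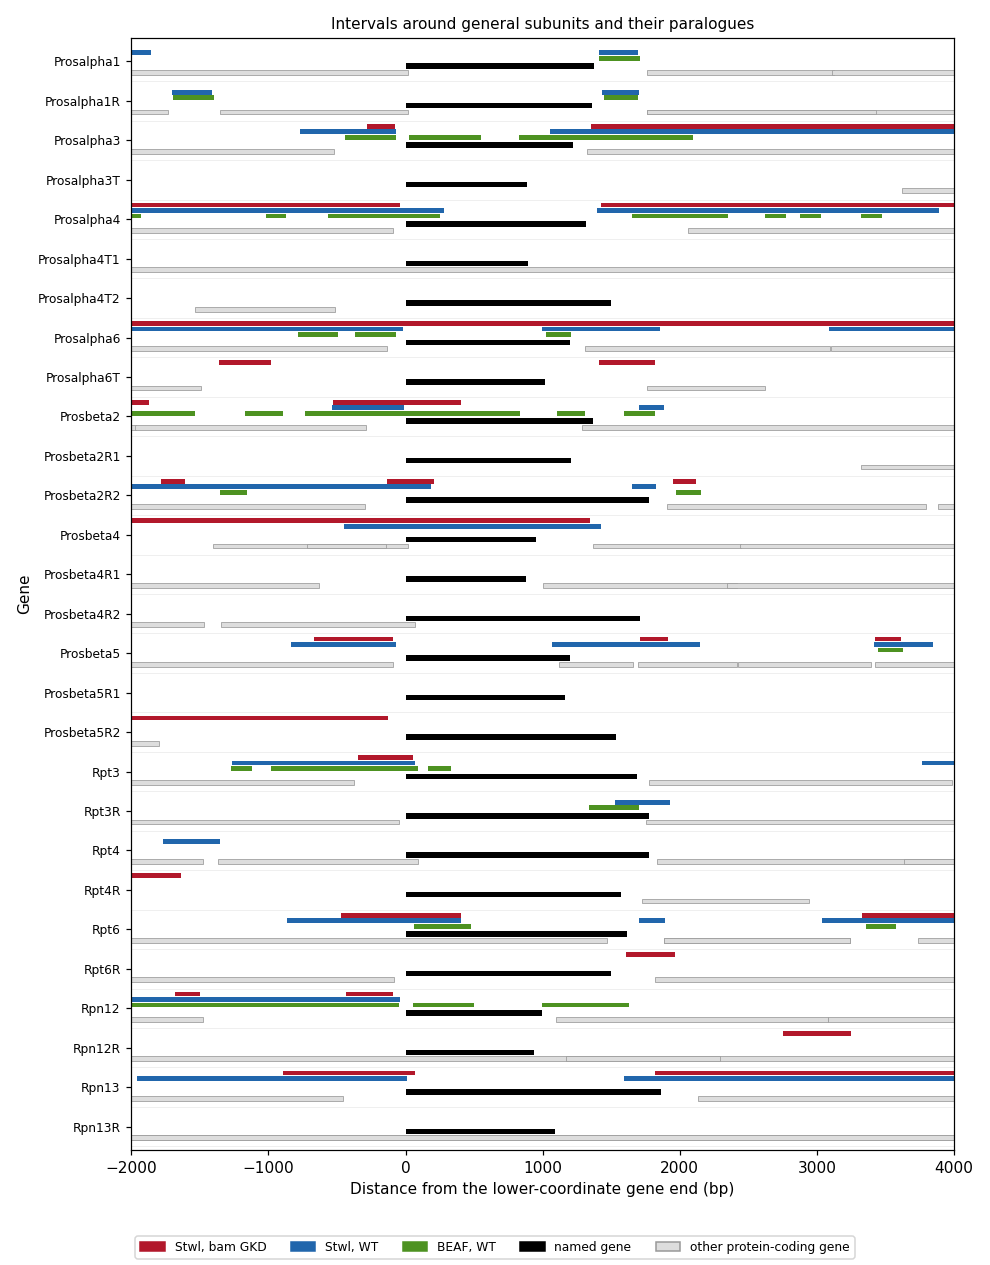
Intervals around the 12 general subunits that have paralogues and, under each, its paralogues, against distance from the lower-coordinate gene end in bp; black bars are the named genes and grey bars other protein-coding genes. Rows of T and R genes are mostly empty, and the intervals beside Prosalpha6T, Prosbeta5R2 and Rpt6R lie outside the black bar.

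Gene lengths of the classes overlapped: the median gene length was 1390 bp for general subunits (914 bp to 4500 bp) and 1282 bp for paralogues (881 bp to 1778 bp), against 2161 bp for all genes. Among genes of at most 2000 bp, Stwl in bam GKD was at 20 of 26 general subunits and 4 of 16 paralogues, against 51.7% of all such genes, Stwl in WT at 24 and 3, against 44.0%, and BEAF at 18 and 3, against 20.8%. The BEAF share of paralogues, 18.8%, was near that of all such genes. Another protein-coding gene lay within 500 bp of every general subunit and of 10 of the 16 paralogues, against 80.4% of all genes. An overlap with another protein-coding gene was found for 16 of 32 general subunits, 6 of 16 paralogues and 5760 of all 13911 genes. The paralogues that lie wholly inside a larger gene are Rpn13R inside rg, Rpn12R inside Sytbeta, a synaptotagmin gene, and Prosalpha4T1 inside CG42322, and none of these had an interval. Of all genes with a neighbour within 500 bp, 64.0% had Stwl in bam GKD, 61.1% Stwl in WT and 32.1% BEAF at an end, and of those without, 50.4%, 33.6% and 11.7%. The 10 paralogues with a close neighbour had Stwl at 2 in bam GKD, Stwl at 3 in WT and BEAF at 3, and the 6 without had Stwl at 2 in bam GKD and neither Stwl nor BEAF in WT.

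The intervals were largely shared with neighbouring genes. Of those at general subunits, 30 of 33 in bam GKD, 42 of 44 in WT and 35 of 42 for BEAF were also at an end of another protein-coding gene. Among all intervals at a protein-coding gene end these shares were 65.6%, 72.2% and 69.2%. That background counts each interval once, whereas intervals at members were drawn through genes, which picks intervals at several genes more often. The comparison is therefore unlike, and no excess at general subunits can be read from it. All 12 intervals at paralogues were also at an end of another gene, and 8 of them lay nearer to that end than to the paralogue. At general subunits this was so for 46 of 119 intervals, another 46 were equally near to both, and 27 were nearer to the general subunit. Members shared no interval with each other.

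A list of 32 further genes of ubiquitin tagging and proteasome control was counted in the same way. Stwl was at 28 of them in bam GKD, against 61.4% of all genes, and at 31 in WT, against 55.7%, and BEAF was at 21, against 28.1%. The genes of this list are longer (median 2772.5 bp) than all genes (2161 bp), and the part of gene length in these counts was not tested. The 19 genes in all 3 lists, against 24.3% of all genes, included Uba1, which encodes the enzyme that activates ubiquitin, PI31, a proteasome regulator, REG, a proteasome activator, TER94, an unfolding ATPase, and the ubiquitin ligase subunit genes Cul1, Cul3, SkpA, Roc1a and slmb. Sem1, a small cap subunit outside the naming pattern, and Pomp, a barrel assembly factor, had Stwl in both genotypes and no BEAF at an end, as did cnc, whose product activates proteasome genes under stress. At cnc BEAF lay inside the gene, away from its ends, while it was 25559 bp from Sem1 and 8053 bp from Pomp. Ufd1, RpS27A and Ubc10 had Stwl in WT only (9.38% of the list, against 6.19% of all genes). No gene of the list had it in bam GKD only, against 11.8% of all genes. Only 1 gene of the list, Uch-L5R, lacked Stwl at an end in WT and could have done so, so this says little. Uch-L5R was the only gene in none of the lists, with intervals 3878 bp, 5237 bp and 8146 bp away for Stwl in bam GKD, Stwl in WT and BEAF. It also carries an R suffix, and Uch-L5, a deubiquitinase gene of the cap, was occupied by Stwl in both genotypes.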

How the data were processed

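CUT&RUN profiles of 24 ovary samples make up the series, each its own group by title, and 3 interval lists were used; the other 21 samples were not analysed here. The authors deposited each list as dm6 interval coordinates with no score or count. Among the tools in the submitters' processing notes are MACS2 2.1.0, Bowtie2 2.2.8, deepTools 3.2.1, SAMtools 1.9, Trim Galore 0.6.6 and FastQC 0.11.8. Their roles, the control, the threshold and the pooling of duplicates are not stated there or elsewhere in the labels. Neighbouring intervals were at least 76 bp apart for BEAF and 1001 bp for Stwl in either genotype, so nearby Stwl stretches may have been joined. Read depth is unknown, and it would change the number and width of intervals.

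Genes came from the RefSeq table of Release 6 plus ISO1 MT, the same assembly as dm6, without the Y chromosome and unplaced sequence, with 1-based coordinates. An overlap of 1 bp with the 500 bp to each side of a gene end made a call (Python 3.11.15, pandas 2.3.3, checked on simulated data). Genes and intervals are not replicates, and no p-value was computed. The members, the ubiquitin gene list (2 names matched by an older symbol) and the rule for named genes (all paralogues, general subunits where lists disagree and the 4 widest in each list) were chosen with earlier results of these data known. Further members are given for completeness.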

Additional observations from a re-analysis of the deposited data

How the results depend on the processing

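Of 112 counts recomputed under 7 other settings, 78 stayed within 1.5 times the reported count, and windows of 250 bp or 1000 bp and an overlap of at least 100 bp changed only 1 beyond that: at 250 bp, Rpn9 became a general subunit with Stwl in bam GKD only (1, against 0). Calls from the gene body in place of its ends left general subunits with Stwl in bam GKD only at 1, in WT only at 8, in both at 15 and in neither at 8, with BEAF and Stwl WT together at 12. Under that setting paralogues had Stwl in bam GKD at 1, bam GKD only at 0, WT only at 1, BEAF at 1 and BEAF with Stwl WT at 1. With the wider 50% of each list, general subunits had Stwl in bam GKD at 13, WT at 18, bam GKD only at 1, both at 12 and neither at 13, and BEAF with Stwl WT at 11. For paralogues that setting gave Stwl in bam GKD at 1, WT at 1, bam GKD only at 1, WT only at 1, both at 0 and BEAF with Stwl WT at 0. With 5083 widest intervals in every list, general subunits had Stwl in bam GKD at 9, WT only at 14, both at 9 and neither at 9. That setting gave paralogues with Stwl in bam GKD at 1, WT at 1, bam GKD only at 1, WT only at 1, both at 0 and BEAF with Stwl WT at 1. Equal numbers remove more of the longer bam GKD list. Without Prosalpha1 and Prosalpha1R, a setting chosen after the data were seen, 1 paralogue had Stwl in WT only. More general subunits had Stwl in WT only than in bam GKD only in every setting run, but with equal numbers of the widest intervals so did all genes (7.52% in bam GKD only and 16.3% in WT only, against 11.8% and 6.19% as reported). In the counts as reported, only 3 general subunits lacked Stwl at an end in WT, which limits how many could have it in bam GKD only.

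The planned count at gene starts was not run, because the annotation used here has no strand, and leaving out members that share an interval changes nothing, since none do. No paired analysis was possible because each group has 1 list. Depth and score are unknown, so a missing interval is not evidence that a protein was absent.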
